A study of Mus musculus with 28 samples.

Results

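The SWI/SNF remodelling subunits followed here are 10 genes, Smarca2, Smarca4, Smarcb1, Smarcc1, Smarcc2, Smarcd1, Smarcd2, Smarce1, Arid1a and Arid1b, taken by symbol from an RNA-seq table of 55450 mouse genes. All 10 were in the table as 1 row each, and all 10 passed the filter on low values. They were followed through the trans-differentiation of C10 cells, a Pre-B line derived from HAFTL cells that carries a transgene of C/EBPα fused to the estrogen receptor (C/EBPα-ER). All groups share this line and this transgene, so every library comes from the same cell line. The 0h cells were uninduced, and the cells of 1h, 12h and 48h were induced with 100 nM β-estradiol together with 10 nM IL-3 and with CSF-1, so the effects of the fusion protein and of the cytokines cannot be told apart. RNA-seq gave 3 libraries per time point, labelled as biological replicates, and Promoter Capture Hi-C (PCHi-C) gave 1 merged list of promoter contacts per time point.

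SWI/SNF complexes, in mammals also called BAF complexes, use the energy of ATP to slide or evict nucleosomes and so open promoters and enhancers to transcription factors. Each complex is assembled around a single ATPase from a core shared by its forms and from alternative paralogs at several positions, and an ARID, PBAF-specific or GLTSCR subunit sets which form of the complex is made. In blood cells the complexes are needed both for B lymphocyte development and for myeloid maturation.

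Levels are given as scaled TPM, the deposited TPM (abundance per transcript length, relative to all transcripts of a library) divided by a median-of-ratios factor for each library. Levels of different genes can be set side by side because TPM are per transcript length. The scaling matters because a ribosomal RNA locus holds 70.3% to 82.9% of a library's TPM, and the mean scaling factor ran from 1.47 at 1h to 0.699 at 48h. After scaling, the median log2 fold change of the 16415 genes tested at 1h, 12h and 48h was 0.021, 0.069 and 0.072, whereas on TPM as deposited it was 0.59, 0.34 and -0.18. The sums of marker genes moved with the labels. The summed scaled TPM of 8 Pre-B markers fell from 265 to 300 per library at 0h to 40.9 to 49.5 at 48h, and that of 8 macrophage markers rose from 9.94 to 13.3 to between 1347 and 1628. Within the Pre-B sum, not every marker fell steadily. Cd79b had means of 37.0, 3.47, 11.1 and 17.2 scaled TPM in order of time, and Pax5 18.5, 6.64, 2.60 and 5.29. Markers of erythroid cells were listed at 0 in all libraries, and those of T cells summed to at most 0.253. The sum of 6 granulocyte markers went from at most 0.587 per library at 0h and 0.256 at 1h to between 7.44 and 10.6 at 12h and between 1.30 and 2.35 at 48h. Most of it at 12h came from Camp (mean 7.32 scaled TPM) and Prtn3 (1.96), whereas Ly6g, Mpo and Ngp were listed at 0 in every 12h library. The sum of 11 proliferation genes went from 255 to 265 per library (0h) and 224 to 230 (1h) to 51.2 to 53.5 (12h) and 11.6 to 13.5 (48h). This fall and the granulocyte markers at 12h ran alongside the changes described here, and their part in them was not tested. In bulk RNA, fewer cells expressing a gene and less RNA of that gene per cell cannot be told apart.

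By 48h, the mRNAs of 4 subunits were lower than in uninduced cells: Smarcb1, Smarcc1, Smarcd1 and Smarca4. None of the 10 was higher at 48h or at 12h. A gene was called changed with a Benjamini-Hochberg adjusted p under 0.05 in limma, over all genes tested. At 48h, 4 of 10 subunits were lower against 22.0% of all genes tested, and 0 of 10 were higher against 24.5% (all 10 had fold changes between -2.12 and 0.26 on the log2 scale). Of the 4, Smarcb1, Smarcc1 and Smarcd1 fell by more than 2-fold, as did 17.6% of all genes. At 12h, 3 of 10 were lower (Smarcc1, Smarca4 and Smarcb1) against 14.5% of all genes, 1 of them (Smarcc1) by more than 2-fold against 9.39%, and 0 were higher against 16.0%. At 1h, 2 were lower (Smarcb1 and Smarcd2) against 4.92% of all genes and 1 (Arid1a) was higher against 5.42%. Between 12h and 48h, 2 were lower (Smarcb1 and Smarca4) against 11.9%, Smarcb1 by more than 2-fold against 7.72%, and 0 were higher against 10.5%. Over all 4 time points, 6 of 10 differed by the moderated F test against 49.2% of all genes, namely the 4 that fell, Smarcd2 (adjusted p = 0.0310) and Arid1a (adjusted p = 0.0353). All 10 members also passed a stricter filter, a mean TPM of at least 1, as did 9331 genes. Of these 9331, 3095 were lower at 48h (2332 by more than 2-fold), 2652 were higher, and 2152 were lower at 12h. By the F test 6168 differed. These shares are larger than those of all genes tested. Under this filter 4 members were lower at 48h and 4 at 12h, and 6 differed by the F test. With 10 members, 1 gene makes up 10% of a count. The counts describe the members and were not tested against the shares of all genes.

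The median log2 fold change of the 10 subunits at 1h, 12h and 48h was -0.18, -0.23 and -0.13. The scaling between libraries bears on these values. On TPM as deposited the medians were 0.47, 0.091 and -0.54, and the calls at 1h became 3 higher (Arid1a, Smarcc2 and Smarce1) against 24.1% of all genes and 0 lower. On the same scale 7 subunits were lower at 48h than at 12h, against 31.7% of all genes, and 2 of the 7, Smarcc2 (-0.55, adjusted p = 0.0139) and Arid1a (-0.73, adjusted p = 0.00651), had values above 0 after scaling (0.19 and 0.0081). The falls of Smarcb1, Smarcc1, Smarcd1 and Smarca4 at 48h were called on both scales.

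**Figure D1:**
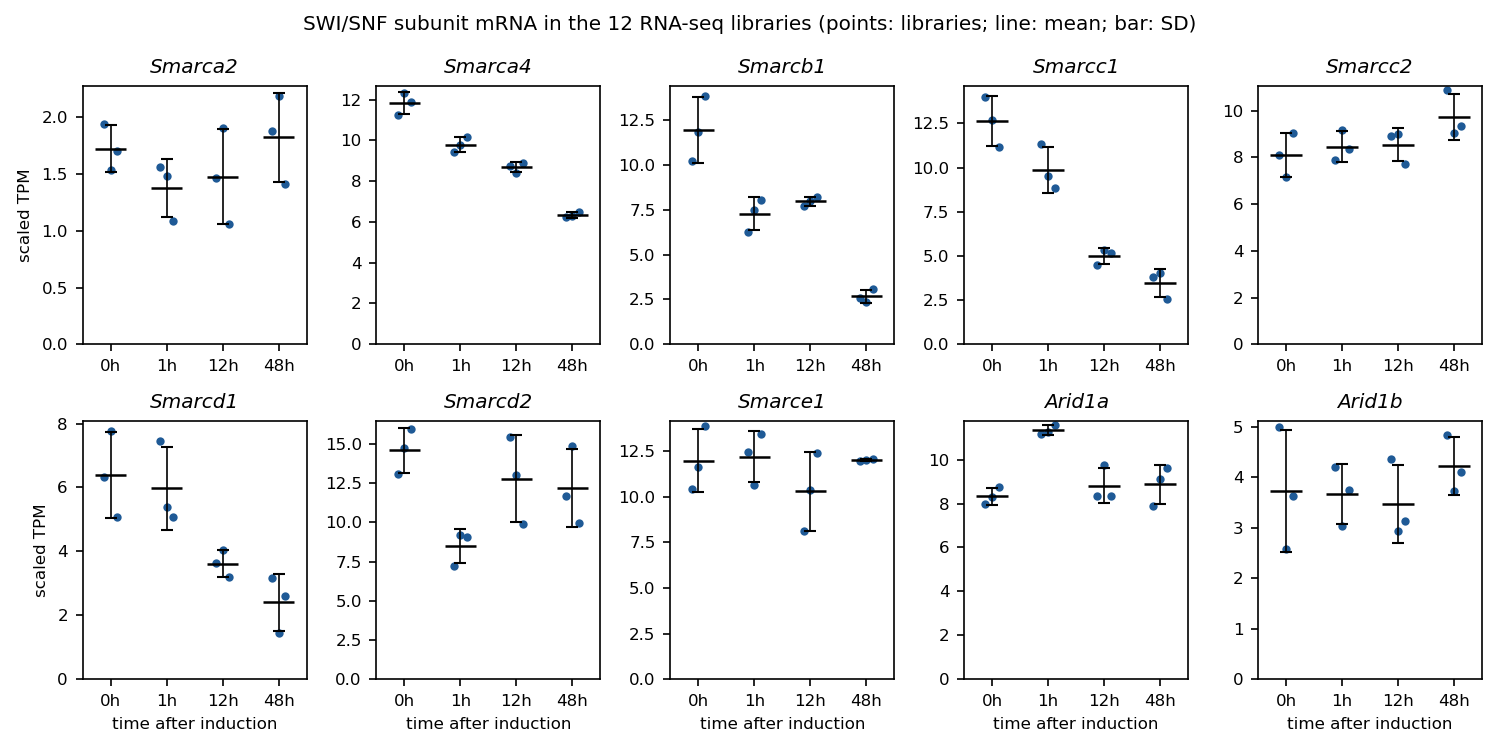
Scaled TPM (vertical axes, each from 0) of the 10 subunit genes at 0h, 1h, 12h and 48h after induction. Points are the 3 libraries of a time point, the horizontal line is their mean and the bar their SD; in Smarcb1, Smarcc1, Smarcd1 and Smarca4 every 48h library lies below every 0h library.

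**Figure D2:**
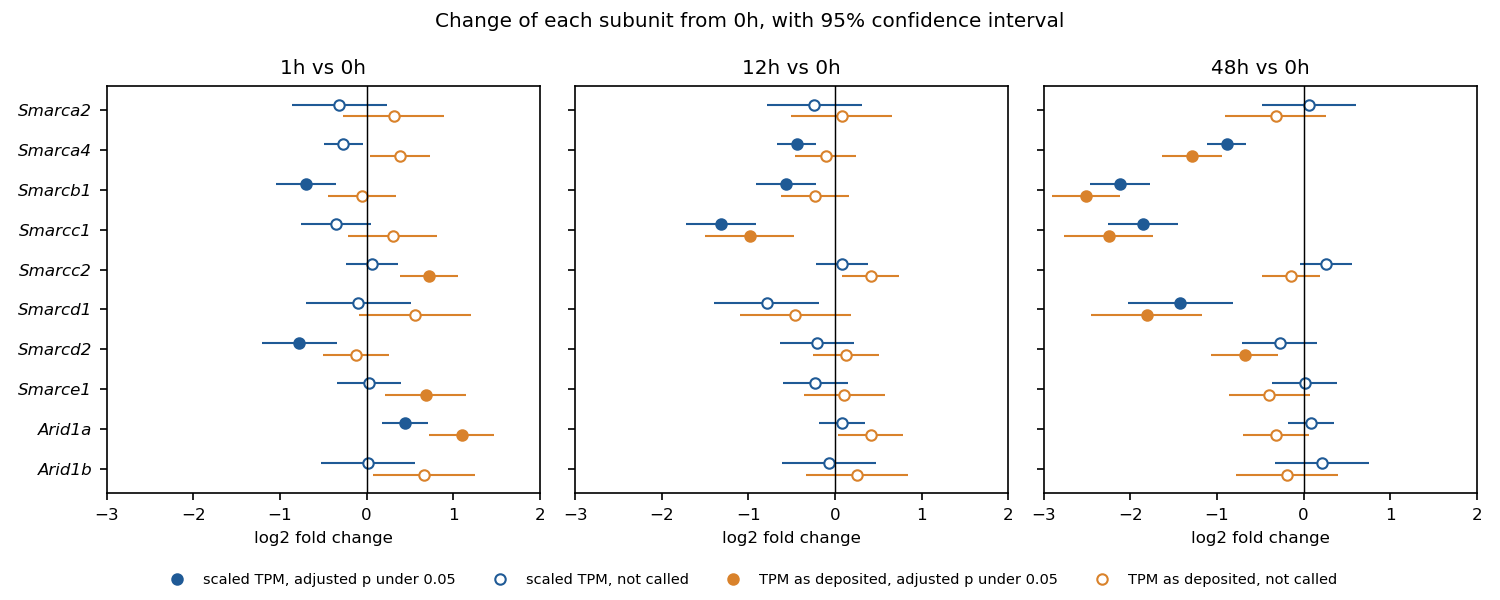
Log2 fold change against 0h (horizontal axes) with its 95% confidence interval for each subunit, on scaled TPM in blue and on TPM as deposited in orange, with filled points for an adjusted p under 0.05. Smarcb1, Smarcc1, Smarcd1 and Smarca4 are filled on both scales at 48h, and the values at 1h shift to the right on TPM as deposited.

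Promoter sequences are shown for Smarca4, Smarcb1 and Smarcc1, members that fell at 48h and whose promoter windows hold the most sequence ahead of annotated exons. They are from RefSeq (build GRCm38.p6), 5′ to 3′ on the strand of the gene, and each stops before the first base in its window that GENCODE gives to an exon of the gene. For Smarca4 and Smarcb1 the RefSeq start lies at the 5′ end that GENCODE gives the gene (0 and 3 bases inside it). The window of Smarcc1 belongs to an internal start, 14.3 kb downstream of the 5′ end of the gene, and is not the promoter at that end. The window of Smarca4 is chr9:21615919-21616168 on the plus strand, that of Smarcb1 is chr10:75921618-75921864 on the minus strand, and that of Smarcc1 is chr9:110131774-110131979 on the plus strand. Capitals mark GC boxes (GGGCGG on either strand) and matches to TGCGCATG, the centre of the motif of NRF1, a general activator of housekeeping promoters.
Smarca4: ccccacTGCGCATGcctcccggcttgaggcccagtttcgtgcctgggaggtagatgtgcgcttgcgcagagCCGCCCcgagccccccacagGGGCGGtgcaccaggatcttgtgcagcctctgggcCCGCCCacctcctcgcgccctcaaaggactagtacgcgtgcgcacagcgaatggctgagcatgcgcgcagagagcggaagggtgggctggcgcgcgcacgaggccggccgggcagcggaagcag
Smarcb1: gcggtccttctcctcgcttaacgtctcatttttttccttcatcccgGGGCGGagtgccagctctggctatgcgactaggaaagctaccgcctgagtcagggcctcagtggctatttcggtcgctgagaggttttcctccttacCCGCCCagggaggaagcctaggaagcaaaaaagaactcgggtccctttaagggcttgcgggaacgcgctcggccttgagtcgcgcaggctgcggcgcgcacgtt
Smarcc1: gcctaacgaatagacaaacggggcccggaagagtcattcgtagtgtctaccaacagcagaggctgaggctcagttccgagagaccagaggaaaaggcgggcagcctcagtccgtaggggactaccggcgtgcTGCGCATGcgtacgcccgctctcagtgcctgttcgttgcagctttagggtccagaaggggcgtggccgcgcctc

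The windows printed were GC-rich, with 70.8% G or C for Smarca4, 61.7% for Smarcc1 (206 bases) and 59.5% for Smarcb1. The median was 52.4% for the 250 bases before the start over 32851 promoters of any expression level. The shorter stretches of Smarcd1 (92 bases) and Smarcd2 (83 bases), which are not printed, held 63% and 49.4%. Promoters were in the table for 9 of the 10 members, and their 10 windows of 300 bases (250 before and 50 after the start, 2 windows for Arid1a) were searched on both strands. Besides that of Smarcc1, the starts of Smarcd2 (5.3 kb), of 1 of the Arid1a windows (2.8 kb) and of Arid1b (0.7 kb) lay well inside the gene, so the matches there do not describe the promoter at its 5′ end. The letters TGCGCATG were chosen after these sequences had been seen. They occurred in Smarca4 and Smarcc1, in Smarcb1 15 bases after the start, and in 2.12% of all promoters. GGGCGG occurred in all 9 members (in Smarcc2 only after the start) and in 35.7% of all promoters. The C/EBP letters TTGCNNAA, held by 10.8% of all promoters, were found only in Smarcd2 among the 9 members, with its first base at -132 from that internal start. TTTCCCGC or TTTGGCGC, letters of the E2F motif, occurred in Arid1a (in the window of its internal start) and Smarcd1 and in 1.56% of all promoters. None of the 9 members held the ETS letters CCGGAAGT (3.89% of all promoters), the CRE letters TGACGTCA (1.79%) or the PU.1 letters GAGGAAGT (3.20%). No motif letters overlapped each other in the windows printed.

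The ATPases, which drive remodelling, were compared first. Smarca4 (chr9:21616169-21704230, plus strand) encodes BRG1, the ATPase more widely needed in dividing cells. Its scaled TPM was 11.3, 12.3 and 11.9 in the 0h libraries, 9.41, 9.78 and 10.2 at 1h, 8.73, 8.41 and 8.89 at 12h and 6.23, 6.29 and 6.51 at 48h. No library of a later time point overlapped with an earlier one, and the spread within a time point was small. Against 0h, Smarca4 fell by 0.44 on the log2 scale at 12h (SE 0.10, adjusted p = 0.0074) and by 0.89 at 48h (SE 0.10, adjusted p = 3.02e-05), and it was lower at 48h than at 12h (log2 fold change -0.45, adjusted p = 0.0090). At 1h it did not pass the test (-0.27, adjusted p = 0.128). The call at 12h was lost on TPM as deposited (-0.11, adjusted p = 0.657).

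Smarca2 (chr19:26605050-26778322, plus strand) encodes BRM, the alternative ATPase. It had the lowest mean of the 10 subunits at every time point, with 1.94, 1.53 and 1.70 scaled TPM at 0h, 1.57, 1.48 and 1.09 at 1h, 1.46, 1.90 and 1.06 at 12h and 1.88, 2.19 and 1.41 at 48h. The libraries of all time points overlapped, and no contrast was called. At 48h the interval of its log2 fold change ran from -0.48 to 0.61. The ratio of Smarca4 to Smarca2, which does not depend on scaling, was 6.94 ± 1.12 (SD, n = 3) in uninduced cells, 7.33 ± 1.80 and 6.25 ± 1.98 after 1h and 12h, and 3.60 ± 0.905 by 48h. BRM transcripts thus made up 12.8% ± 1.8 of both ATPases at 0h and 22.3% ± 4.1 at 48h. An exact permutation test over the 4 time points gave p = 0.03675 for this ratio (adjusted over 4 ratios, 0.0490). With 1 library left out, this ratio stayed past the threshold in 3 of 12 cases, those without 12h replicate 2, 12h replicate 3 or 48h replicate 3, and the adjusted p of the other 9 ran from 0.0581 to 0.155.

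Smarcb1 (chr10:75896769-75921617, minus strand), also known as SNF5 or BAF47, is a core subunit that binds the acidic patch of the nucleosome, and it is present in BAF and PBAF but not in the GLTSCR form of the complex. It changed most of the 10. Its scaled TPM was 10.2, 11.8 and 13.8 at 0h, 6.26, 7.50 and 8.06 at 1h, 7.71, 7.97 and 8.22 at 12h and 2.58, 2.36 and 3.06 at 48h. The 0h libraries lay above all others, the 1h and 12h libraries overlapped, and the 48h libraries lay below all others. Smarcb1 fell by 2.12 on the log2 scale at 48h (SE 0.16, adjusted p = 8.73e-07), and 1.55 of this lay between 12h and 48h (adjusted p = 3.70e-05). The smaller falls at 1h (-0.70, adjusted p = 0.0160) and 12h (-0.57, adjusted p = 0.0183) depended on the scaling, since TPM as deposited gave -0.049 (adjusted p = 0.870) and -0.23 (adjusted p = 0.361). Without 0h replicate 3 the adjusted p was 0.0551 at 1h and 0.0641 at 12h, without 1h replicate 1 it was 0.0615 at 1h, and without 12h replicate 1 it was 0.0543 at 12h.

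Smarcc1 (chr9:110117708-110240178, plus strand), which encodes the scaffold subunit BAF155, fell at 12h. Its scaled TPM was 14.0, 12.7 and 11.2 at 0h, 11.3, 9.50 and 8.82 at 1h, 4.48, 5.36 and 5.17 at 12h and 3.81, 4.01 and 2.57 at 48h. The 0h and 1h libraries overlapped, and the 12h and 48h libraries lay below both without overlapping each other. Smarcc1 fell by 1.32 on the log2 scale at 12h (SE 0.18, adjusted p = 0.000294) and by 1.86 at 48h (SE 0.18, adjusted p = 8.86e-06), and both falls were called on TPM as deposited. The difference of -0.54 between 12h and 48h did not pass the test (adjusted p = 0.0577). Of its exon bases, 1.57% are shared with Dhx30 on the other strand, and the library kit does not mark strand.

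Smarcc2 (chr10:128459248-128490482, plus strand) encodes BAF170, the paralog with which BAF155 pairs in the scaffold. Its scaled TPM was 8.11, 7.16 and 9.06 at 0h, 7.87, 9.16 and 8.35 at 1h, 8.91, 9.01 and 7.71 at 12h and 10.9, 9.03 and 9.34 at 48h. The 48h libraries overlapped with those of 0h and 1h and lay just above those of 12h, and the log2 fold change of 0.26 at 48h did not pass the test (interval -0.036 to 0.56, adjusted p = 0.138; on TPM as deposited -0.14, adjusted p = 0.486). The ratio of Smarcc1 to Smarcc2 declined from 1.58 ± 0.299 (SD, n = 3) in uninduced cells over 1.18 ± 0.226 (1h) and 0.589 ± 0.0838 (12h) to 0.357 ± 0.0849 (48h). Smarcc1 thus exceeded Smarcc2 in all 6 libraries of 0h and 1h and lay below it in all 6 libraries of 12h and 48h. The ratio differed among time points by the exact permutation test (p = 0.00013, adjusted over 4 ratios 0.00052), and it stayed past the threshold without any single library. Smarcc2 made up 39.2% ± 4.9 of the scaffold transcripts before induction, 46.2% ± 4.5 after 1h, 63.0% ± 3.3 after 12h and 73.9% ± 4.6 after 48h.

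**Figure D3:**
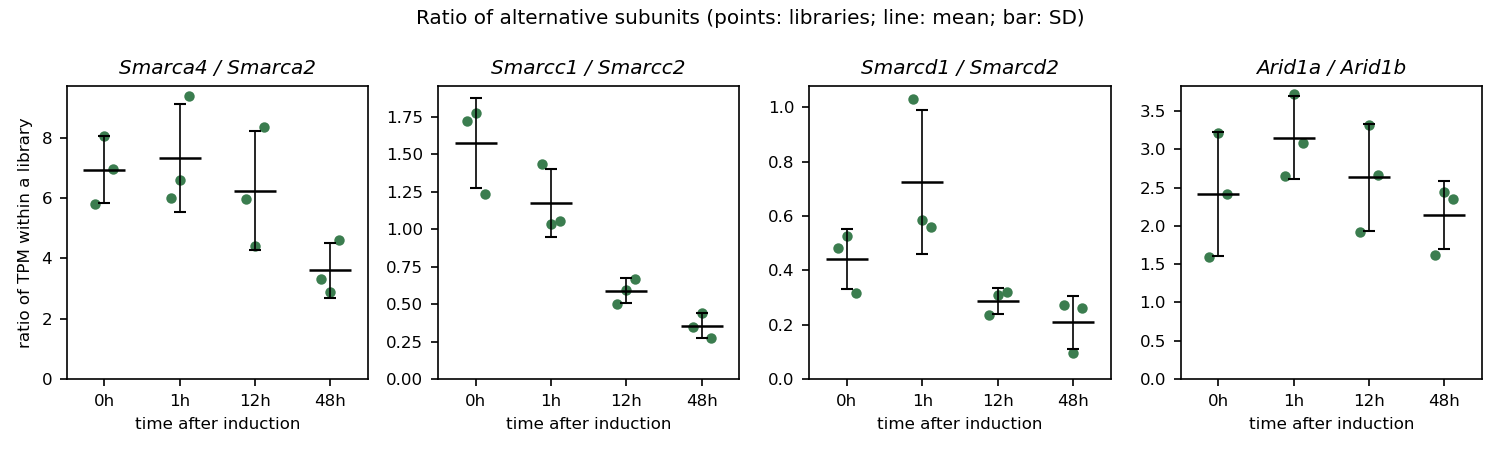
Ratio of TPM of 2 alternative subunits within each library (vertical axes, from 0) at the 4 time points, with points for libraries, lines for the mean of 3 and bars for the SD. The mean Smarcc1 / Smarcc2 ratio falls from 1.58 to 0.357, Smarcd1 / Smarcd2 is highest at 1h (0.726) and lowest at 48h (0.209), and the Arid1a / Arid1b libraries of 0h and 12h overlap with those of every other time.

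The SMARCD position, which links the complex to transcription factors, is filled by 1 of 3 paralogs. Smarcd1 (chr15:99702129-99713991, plus strand), encoding BAF60a, had 6.33, 7.77 and 5.06 scaled TPM at 0h, 7.46, 5.40 and 5.07 at 1h, 3.62, 4.04 and 3.18 at 12h and 3.17, 1.44 and 2.59 at 48h. All 12h and 48h libraries lay below all 0h and 1h libraries. The fall of 1.42 on the log2 scale at 48h was called (SE 0.28, adjusted p = 0.00137). The value of -0.79 at 12h was not (adjusted p = 0.0514), and it passed the test without 0h replicate 3 (adjusted p = 0.0489), 48h replicate 1 (0.0361) or 48h replicate 2 (0.0159). Of the exon bases of Smarcd1, 12.7% are shared with the genes Gm17349 and Gm34939 on the other strand, whose reads cannot be told apart from its own there.

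Smarcd2 (chr11:106263179-106272972, minus strand), encoding BAF60b, is known for its part in granulocyte maturation. Its scaled TPM was 13.1, 14.7 and 16.0 at 0h, 7.23, 9.21 and 9.06 at 1h, 15.5, 13.0 and 9.91 at 12h and 11.7, 14.9 and 9.98 at 48h. The 1h libraries lay below those of all other time points, and the 0h, 12h and 48h libraries overlapped. At 1h Smarcd2 fell by 0.78 on the log2 scale (SE 0.20, adjusted p = 0.0291), a call that was lost on TPM as deposited (-0.12, adjusted p = 0.640) and without 0h replicate 2 or 3 or any of the 1h libraries (adjusted p from 0.0584 to 0.110). At 48h the log2 fold change was -0.27 (interval -0.71 to 0.16, adjusted p = 0.284), and on TPM as deposited it was -0.68 and called (adjusted p = 0.00771). The ratio of Smarcd1 to Smarcd2 was 0.443 ± 0.111 (SD, n = 3) before induction, 0.726 ± 0.266 after 1h, 0.289 ± 0.0475 after 12h and 0.209 ± 0.0978 after 48h. It differed among time points by the exact permutation test (p = 0.00143, adjusted over 4 ratios 0.00286), and it stayed past the threshold without any single library. The third paralog, Smarcd3, was low throughout, at 0.115 ± 0.170 scaled TPM in uninduced cells with 1 library listed at 0, and at 0.578 ± 0.125 (1h), 0.698 ± 0.561 (12h) and 0.181 ± 0.102 (48h) after induction. Smarcd3 was called higher at 12h (log2 fold change 1.92, SE 0.61, adjusted p = 0.0342), although the 0h and 12h libraries overlapped.

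Smarce1 (chr11:99209047-99231017, minus strand) encodes BAF57, an HMG-box subunit that binds DNA. Its scaled TPM was 10.4, 11.6 and 13.9 at 0h, 12.5, 10.7 and 13.5 at 1h, 8.12, 10.4 and 12.4 at 12h and 12.0, 12.0 and 12.1 at 48h. The libraries of all time points overlapped and no contrast was called. At 48h the log2 fold change was 0.011 (interval -0.36 to 0.38), and on TPM as deposited it was -0.40 (adjusted p = 0.163).

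The ARID subunits mark the canonical BAF form and recruit it to enhancers. Arid1a (chr4:133679008-133756769, minus strand) had 7.97, 8.28 and 8.75 scaled TPM at 0h, 11.2, 11.3 and 11.6 at 1h, 8.36, 9.74 and 8.34 at 12h and 7.87, 9.10 and 9.64 at 48h. The 1h libraries lay above all others, and those of 0h, 12h and 48h overlapped. The rise of 0.44 on the log2 scale at 1h was called (SE 0.12, adjusted p = 0.0410) and on TPM as deposited it was 1.10 (adjusted p = 0.00136), but it did not pass the test without any 1 of the 6 libraries of 0h and 1h (adjusted p from 0.0562 to 0.103). Arid1b (chr17:4994332-5347656, plus strand), its paralog, had 4.995, 2.57 and 3.62 scaled TPM at 0h, 4.21, 3.03 and 3.75 at 1h, 4.36, 2.94 and 3.13 at 12h and 4.84, 3.72 and 4.10 at 48h. All time points overlapped, and no contrast was called (at 48h 0.22, interval -0.33 to 0.76). The ratio of Arid1a to Arid1b was between 2.14 ± 0.450 (48h) and 3.15 ± 0.537 (1h; SD, n = 3), and its exact permutation test gave p = 0.367. Within each time point replicate 1 had the lowest ratio and replicate 2 the highest, and with the replicate number as a block the exact permutation test gave p = 0.00347 (adjusted over 4 ratios 0.00694), although the numbers were not taken as pairs.

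Among the 10 genes at 0h, Smarcd2 (14.6 ± 1.45 scaled TPM), Smarcc1 (12.6 ± 1.41), Smarce1 (12.0 ± 1.75), Smarcb1 (11.9 ± 1.82) and Smarca4 (11.8 ± 0.537) were the most abundant, and neighbours in this order overlapped. They were followed, without overlap, by Arid1a (8.33 ± 0.393), which overlapped with Smarcc2 (8.11 ± 0.951), and Smarcc2 with Smarcd1 (6.39 ± 1.35). Arid1b (3.73 ± 1.21) and Smarca2 (1.72 ± 0.205) came last, each below its neighbour in all libraries. At 48h the order was Smarcd2 (12.2 ± 2.48), Smarce1 (12.0 ± 0.050), Smarcc2 (9.75 ± 0.984), Arid1a (8.87 ± 0.908), Smarca4 (6.34 ± 0.145), Arid1b (4.22 ± 0.572), Smarcc1 (3.46 ± 0.783), Smarcb1 (2.67 ± 0.359), Smarcd1 (2.40 ± 0.884) and Smarca2 (1.83 ± 0.392). Smarcd2 and Smarce1 overlapped, as did Smarcc2 and Arid1a, and each neighbouring pair from Arid1b down to Smarca2 overlapped. Smarcb1, at the level of Smarce1 in uninduced cells, thus lay among the lowest at 48h, below Smarce1 in every library. The 10 genes together summed to 91.3 ± 3.36 scaled TPM in uninduced cells and to 78.5 ± 1.27, 70.7 ± 2.39 and 63.7 ± 2.14 after 1h, 12h and 48h.

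The genes whose centred log2 profile over the 12 libraries was nearest to that of Smarcb1, among 9193 genes with a mean of at least 1 scaled TPM, were Rpsa and Rpl14, which encode ribosomal proteins, and Parvg, an actin-linked adaptor of blood cells. Their root mean square differences from Smarcb1 were 0.147, 0.173 and 0.165. Rpsa had means of 432, 293, 261 and 102 scaled TPM in order of time. Nearest to Smarcc1 were Phf10, itself a PBAF subunit (0.136), Smc3, a cohesin subunit (0.166), and Hnrnpd, an RNA-binding protein (0.173).

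Of 21 other SWI/SNF subunits, 18 passed the filter on low values. At 1h, 3 were lower and 1 higher, at 12h 4 were lower and 2 higher, and at 48h 7 were lower and 4 higher, against the same shares of all genes as above. The largest falls were those of Bcl7a and Bcl11a, 2 subunits named for genes altered in lymphoid tumours. Bcl11a, also a transcription factor of early B cells, dropped from 8.49 ± 1.17 scaled TPM (SD, n = 3) to 2.08 ± 0.194 after 1h, 1.02 ± 0.325 after 12h and 0.757 ± 0.222 after 48h. It fell at all 3 times, by 1.97, 2.97 and 3.35 on the log2 scale (adjusted p = 0.000482, 6.56e-06 and 8.27e-07). Bcl7a fell from 4.08 ± 0.255 to 1.45 ± 0.0572, 0.497 ± 0.146 and 0.213 ± 0.0378, with log2 fold changes of -1.43, -2.83 and -3.74. Both fell without any overlap between 0h and later libraries, and the fall at 1h was larger than that of any of the 10 members.

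The subunits of the PBAF form split. Phf10 fell at 12h (-1.26) and 48h (-1.96, SE 0.21, adjusted p = 1.4e-05), whereas Arid2, the subunit that defines PBAF, was higher at 1h only (0.72, adjusted p = 0.0400; 0.28 at 48h, adjusted p = 0.268), and Pbrm1 and Brd7 were not called at any time. The Arid2 call was lost with no filter and with no trend. It was also lost without 0h replicate 2, without 12h replicate 3 and without any of the 1h libraries. Actl6a, the actin-like subunit of proliferating cells, fell from 11.1 ± 2.61 scaled TPM to 4.36 ± 0.306 after 12h and 2.69 ± 0.642 after 48h (log2 fold change -2.01, SE 0.23, adjusted p = 2.7e-05). Actb, the actin that is also a subunit, rose from 591 ± 7.70 to 1300 ± 157 at 12h (1.13, adjusted p = 0.00255) and 1228 ± 371 at 48h (1.00, adjusted p = 0.00285). In the GLTSCR form, Bicra rose at 48h (1.12, adjusted p = 0.00127), Bicral fell at 1h alone among the 3 contrasts (-1.34, adjusted p = 0.0147) and Brd9 fell at 48h (-1.16, adjusted p = 0.00262). Bcl7c (-1.62, adjusted p = 0.00189) and Dpf1 (-2.32, adjusted p = 0.00398) also fell at 48h, Dpf1 from 1.10 ± 0.292 to 0.207 ± 0.262 scaled TPM with 1 of the 48h libraries listed at 0.

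Of 14 ATPases of other remodeller families, 13 passed the filter. At 1h 1 was higher and 0 lower, at 12h 2 were higher and 2 lower, and at 48h 2 were higher and 4 lower. Of all genes tested, 5.42% were higher and 4.92% lower at 1h, 16.0% and 14.5% at 12h, and 24.5% and 22.0% at 48h. Hells, an ATPase of replicating cells that supports DNA methylation, fell from 9.79 ± 2.01 scaled TPM to 0.992 ± 0.492 after 12h and 0.328 ± 0.0672 after 48h (log2 fold change -4.52, SE 0.30, against -0.89 for Smarca4). Chd3, an ATPase of the NuRD complex, fell by 1.39 at 12h (adjusted p = 0.00288), and Chd9 rose by 1.21 at 12h and 1.40 at 48h (adjusted p = 0.000771).

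**Figure D4:**
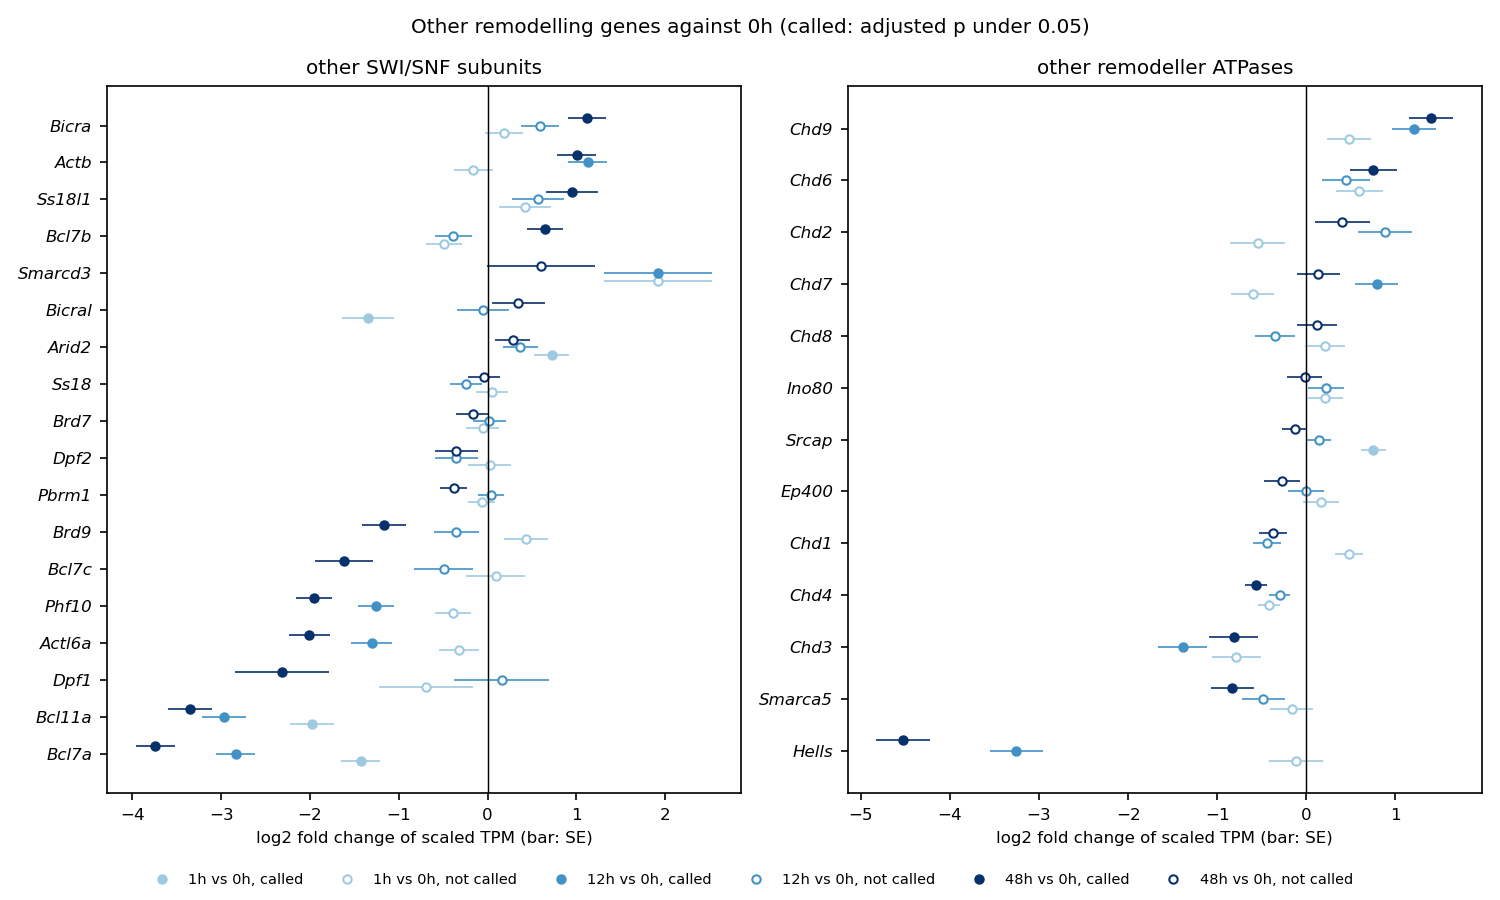
Log2 fold change of scaled TPM against 0h (horizontal axes, bars are SE) at 1h, 12h and 48h for 18 other SWI/SNF subunits and 13 other remodeller ATPases, ordered by their value at 48h. Filled points passed an adjusted p under 0.05; Bcl7a, Bcl11a and Hells lie farthest to the left at 48h.

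Promoter contacts were counted from the PCHi-C lists as interactions of the restriction fragments (baits) that hold a transcription start of the gene. The lists merge replicates, so a count has no error and differences between lists were not tested here. The authors did test changes of contact between time points, and reported raised expression at promoters that gained contacts. Their test was not repeated for the members. All 10 members had a bait, Smarcc1 2 of them. Together they had 61 contacts in the 0h list and 78, 65 and 58 in the lists of 1h, 12h and 48h, all on the chromosome of the gene, and the median was 5.5, 5.5, 5 and 5.5 contacts per member against 5 at each time over 23193 genes with a bait. At 48h, 6 members had more contacts than at 0h, as did 42.6% of all genes, and 3 had fewer, as did 41.3%. Of the 61 contacts at 0h and the 58 at 48h, 34 were the same fragment pair. Of the 58, 43 had a partner within 10 kb of a partner listed at 0h.

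Smarcb1 went from 6 contacts at 0h to 13 at 1h, 5 at 12h and 1 at 48h, and the remaining one, 327 kb away, was listed at all 4 times. Of the 13 Smarcb1 contacts at 1h, 11 had a partner within 10 kb of a partner listed at 0h. Of its 6 contacts at 0h, 0 had a score of at least 10, where listing starts at 5. The same held for Smarce1 and Arid1b. At 1h, 7 of the 13 partners of Smarcb1 were baits of other genes. Among them was a nearby fragment, 16.3 kb from the bait by their centres. It holds start sites of Chchd10, Gm16221, Gm867, Mmp11 and Vpreb3, the last a Pre-B marker used above. Smarcc2 had 20, 26, 16 and 11 contacts, the most of the 10 at each time, and 10 of its 11 contacts at 48h were also listed at 0h. Its mRNA was not called lower at any time on scaled TPM, but was called lower at 48h against 12h on TPM as deposited. Smarcd2 went from 7 to 4, 3 and 2 contacts.

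Contacts were more numerous at 48h for Smarcd1 (7, 6, 10 and 10), Arid1a (7, 7, 7 and 10), Arid1b (5, 5, 15 and 10), Smarce1 (3, 2, 3 and 5), Smarcc1 (5, 12, 5 and 6) and Smarca4 (0, 2, 0 and 2). Of these, Smarcd1, Smarcc1 and Smarca4 had lower mRNA at 48h. All 10 Smarcd1 contacts at 48h had a partner within 10 kb of a partner listed at 0h. With the most upstream start alone, Smarcc1 had 4 contacts at 0h and 4 at 48h. The bait of Smarcd1 also holds starts of Asic1, Gm17349 and Gm34939, 1 bait of Smarcc1 holds that of Dhx30, the bait of Smarca4 that of Mir1946b and the bait of Smarcc2 that of Mir8105, and the contacts of genes on a shared bait cannot be told apart. Both Smarcc1 baits contacted the fragment that holds a start of Elp6 at all 4 times. Smarca2 had the same single contact at each time, 821 kb from its bait, with a fragment that holds a start of Pum3.

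**Figure D5:**
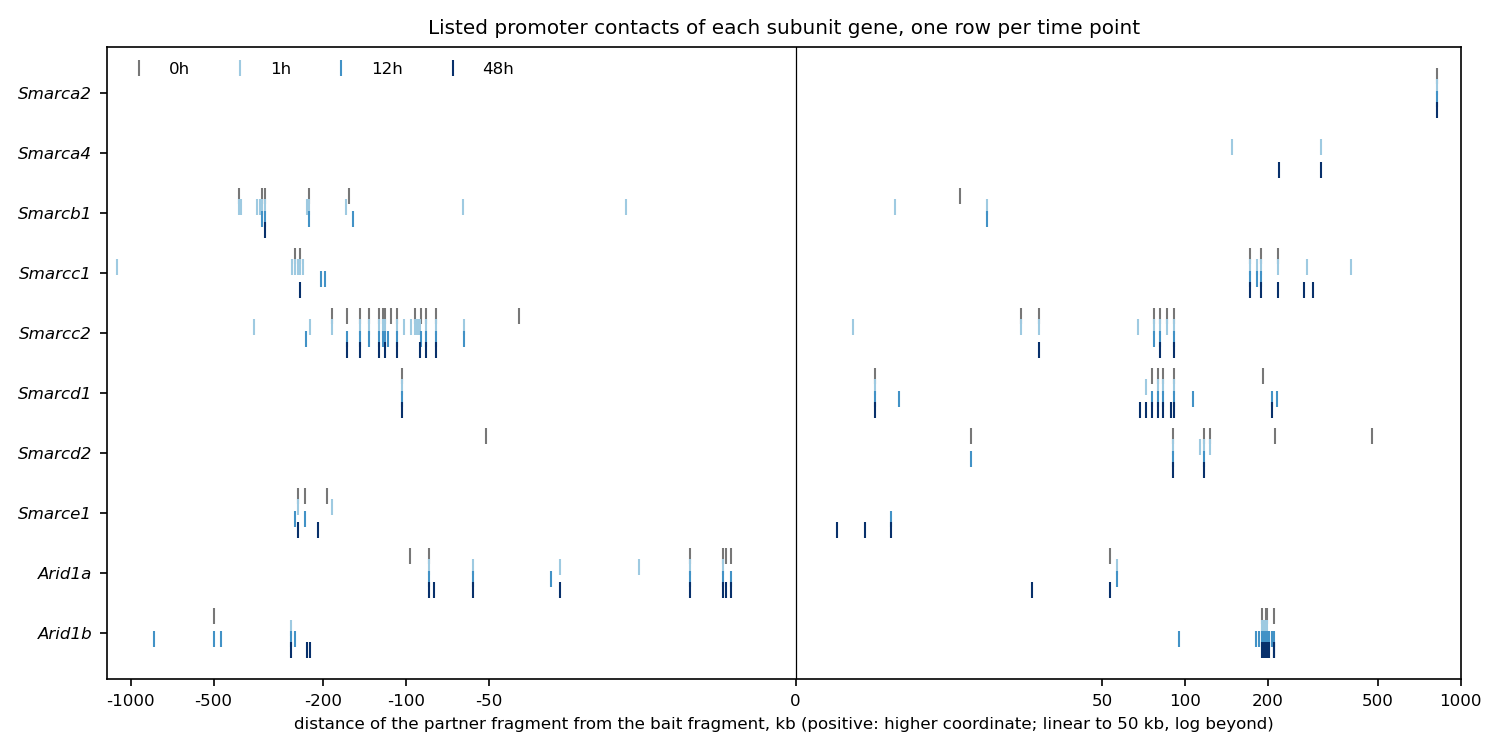
Partner fragments of each subunit gene by their distance in kb from the bait (horizontal axis, linear to 50 kb and logarithmic beyond, positive towards higher coordinates), with a row of marks for each time point from 0h at the top to 48h at the bottom. Smarcb1 keeps 1 mark at 48h, and Smarcc2 has the most marks at each time.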

How the data were processed

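RNA-seq libraries of 4 time points (3 each) and PCHi-C lists were analysed, and the Hi-C samples were left out. The authors pooled technical repeats of a library, trimmed its reads (Trim Galore 0.6.2), aligned them to mm10 (HISAT2 2.1.0) and deposited TPM made with RSEM for 55450 genes of Ensembl GRCm38. TPM keep no record of depth, so the counting error of low genes is unknown. The PCHi-C lists, called by the authors with CHiCAGO on merged replicates, hold a deposited score of at least 5 per interaction at 0h and whole numbers of unnamed unit at the other times, which were not used.

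TPM were divided by median-of-ratios size factors. Genes whose mean deposited TPM reached 0.1 (16415) entered limma 3.58.1 (R 4.3.3) on log2(scaled TPM + 0.1), with all 12 libraries in 1 model, contrasts between time points, a mean-variance trend and Benjamini-Hochberg adjustment, so fold changes of low genes are understated. Nothing in the labels says whether biological replicates were separate cultures, and p-values measure the spread between these samples. Paralog ratios, of TPM without pseudocount, were compared by exact permutation over 369600 assignments of libraries to time points (smallest p 6.49e-05), and 3 libraries against 3 cannot go below 0.1. Gene positions and starts are those of GENCODE M21, which all 55450 genes matched. On simulated data with 200 of 16415 genes changed at 48h, the model recovered 84% of them and called 11 unchanged genes. The 84% applies to this setting alone, and how recovery depends on the size of a change was not tested. In the measured data far more genes were called at 48h, 4025 higher and 3614 lower. The simulated noise was independent between libraries, so effects shared by libraries were not checked. Python 3.11.15 was used with numpy 2.4.6, scipy 1.17.1, pandas 2.3.3 and matplotlib 3.10.9.

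The members and lists were chosen with earlier results of these data known. All 10 members are named, other subunits and ATPases where they passed an adjusted p under 0.05 beyond a 2-fold change at any time against 0h (with Smarcd3 and Arid2 added), and the 3 nearest genes for the 2 members of widest range. Pbrm1 and Brd7 were named after their values were seen. Alternatives varied scaling, pseudocount, filter, trend, libraries, replicate block, and bait and partner rules.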

Additional observations from a re-analysis of the deposited data

How the results depend on the processing

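The falls of Smarcb1, Smarcc1, Smarcd1 and Smarca4 at 48h and of Smarcc1 at 12h passed the test under all 25 alternatives, with log2 fold changes at 48h from -2.51 to -1.81, -2.25 to -1.62, -1.81 to -0.96 and -1.29 to -0.80. On TPM as deposited, 3 subunits were called higher and 0 lower at 1h, 1 lower at 12h and 7 lower at 48h against 12h. At 48h against 0h, 5 were lower. Other subunits and ATPases called at 1h numbered 9 and 6. Of the 16415 genes tested, 3955 were higher and 231 lower at 1h on this scale. Those lower numbered 1283 at 12h, 4466 at 48h and 5205 at 48h against 12h. The subunits lower at 1h numbered 1 with quantile normalization, with rescaling outside the 20 most abundant genes and with no trend. Of all genes, 691, 418 and 662 were lower in these settings, in that order. With no trend 0 subunits were higher at 1h, against 912 of all genes. Other ATPases called at 1h numbered 2 with quantile normalization, a pseudocount of 1 or 0.01, a mean TPM of at least 1 or the 6 libraries compared. Other subunits called at 1h numbered 2 with the 6 libraries. In these settings 664 to 932 of all genes were higher and 691 to 932 lower at 1h. The mean TPM filter tested 9331 genes, and the others tested 16415. A 0h score of at least 10 left 12 contacts, and a partner within 10 kb raised those at 1h shared with 0h from 41 to 65.

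Between 12h and 48h, Smarcc2 and Arid1a turned on TPM as deposited and were called lower there. Against 0h, the directions that turned belong to values that were not called on either side. On TPM as deposited these were, at 1h, Smarca2 0.31, Smarca4 0.39, Smarcc1 0.30 and Smarcd1 0.56; at 12h, Smarca2 0.075, Smarcd2 0.13, Smarce1 0.11 and Arid1b 0.26; at 48h, Smarca2 -0.32, Smarcc2 -0.14, Smarce1 -0.40, Arid1a -0.32 and Arid1b -0.19. Rescaling outside the 20 most abundant genes gave Smarca2 -0.0038 and Smarce1 -0.061 at 48h, Smarcd1 0.075 at 1h and Arid1b 0.046 at 12h, and quantile normalization gave Smarcd1 0.018 at 1h and Smarce1 -0.069 at 48h. The scaling itself moves all genes, and no other cause was tested.

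Leaving out libraries gave 0 to 1 subunits higher and 0 to 2 lower at 1h. At 12h 1 to 4 were lower, at 48h 4, and at 48h against 12h 1 to 3. Among the time points 4 to 6 differed. Of the 16415 genes, 207 to 1054 were then higher and 135 to 1032 lower at 1h. Those lower numbered 1227 to 2597 at 12h, 2726 to 3668 at 48h and 896 to 2173 at 48h against 12h. Those that differed among time points numbered 4881 to 8258. Other subunits called numbered 0 to 4, 4 to 7 and 7 to 12 at 1h, 12h and 48h, and other ATPases 0 to 3, 1 to 6 and 3 to 6. The log2 change of the ratio from 0h to 48h ran from -1.16 to -0.70 for Smarca4 / Smarca2, -2.33 to -1.98 for Smarcc1 / Smarcc2, -1.64 to -0.56 for Smarcd1 / Smarcd2 and -0.40 to 0.10 for Arid1a / Arid1b. Without replicate 2 at all times the adjusted p was 0.0762 for Smarcc1 / Smarcc2 and 0.114 for Smarcd1 / Smarcd2, and without replicate 3 it was 0.0762 for the latter. Fold changes that turned ran from -0.00020 to 0.15 (Arid1a, 12h), -0.31 to 0.16 (Arid1b, 12h), -0.22 to 0.24 (Arid1b, 1h), -0.019 to 0.45 (Arid1b, 48h), -0.15 to 0.23 (Smarca2, 48h), -0.048 to 0.23 (Smarcc2, 12h), -0.080 to 0.15 (Smarcc2, 1h), -0.26 to 0.12 (Smarcd1, 1h), -0.43 to 0.031 (Smarcd2, 12h), -0.085 to 0.14 (Smarce1, 1h) and -0.082 to 0.12 (Smarce1, 48h).

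Same-numbered libraries correlated between -0.011 and 0.26 (7 of 18 pairs over 0.1, 7 of 12 libraries closest to their own number). The pairs of replicate 3 ran from 0.081 (0h and 12h) to 0.26 (0h and 1h). Those of replicate 2 ran from -0.011 to 0.055, and those of replicate 1 from 0.015 to 0.11. Replicate 3 also had the lowest share of the ribosomal RNA locus at each time (75.7% at 48h against 82.9% and 82.7%). The reason was not tested. The numbers were still not taken as pairs, except in the block described next. With a replicate block the other ATPases called at 1h numbered 3, and the Arid1a / Arid1b ratio passed the test (log2 change -0.14, adjusted p = 0.00694). Subunits lower at 48h against 12h then numbered 3, and the other counts of the 10 subunits were as without the block. Of the 16415 genes, 2091 were lower at 48h against 12h with the block, and 970 were higher and 909 lower at 1h. The depth is unknown, so low genes such as Smarcd3 and Dpf1 have no counting interval.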
